A study of Mus musculus with 7 samples.

Results

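The genes described here were 10 genes of fatty acid and triglyceride synthesis: Srebf1, Acly, Acaca, Fasn, Me1, Scd1, Elovl6, Gpam, Pnpla3 and Thrsp. Each gene was chosen by name from the pathway, its span was taken from the GENCODE annotation of the mm9 mouse genome, and every CTCF or Rad21 peak that overlapped the span extended by 50 kb on each side was collected. This gave 130 of the 68667 CTCF peaks and 148 of the 68656 Rad21 peaks, at 10 of 21418 autosomal protein-coding genes. The windows of the 10 genes were from 105 kb (Thrsp) to 372 kb (Acaca) long.

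The peaks came from ChIP-seq, in which DNA bound by a protein is precipitated with an antibody and sequenced. The tissue was liver of untreated female CD-1 mice of 8 weeks, an outbred stock, with 4 CTCF libraries and 3 Rad21 libraries numbered as replicates in the labels. Rad21 is a core subunit of cohesin and was used to map it. The libraries of each antibody had been pooled into 1 peak list, so no value below has a spread between mice and no test of replicates could be made, and the read depth behind each peak cannot be read from the lists. No other sex, treatment or age was compared.

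Fatty acid synthesis turns acetyl-CoA into palmitate in the cytosol of the hepatocyte. The liver raises it after a carbohydrate meal, under transcription factors such as SREBP-1c (from Srebf1), ChREBP and LXR, and the products are desaturated, elongated and esterified to glycerol for storage or export. CTCF is a zinc-finger protein that binds a long, directional DNA motif, cohesin is a ring complex that extrudes DNA loops, and loops often end where CTCF halts cohesin, with the motifs of the loop ends pointing at each other. Cohesin is also found without CTCF, at enhancers and promoters of the tissue. Peaks are therefore called CAC (cohesin and CTCF, sharing at least 1 bp), Lone CTCF, or CNC (cohesin without CTCF). The names are the study's, which set its own classes by overlap with peaks of single replicates, and here the 1 pooled list of each antibody was used.

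The first sequences shown are the 250 bases upstream of the 5′-most protein-coding start of 2 members, chosen to show contrasting motif content, from the mm9 genome, 5′ to 3′ on the strand of the gene. Capitals mark exact matches, on either strand, to 6 short motifs. These were the sterol regulatory element, bound by SREBP, with the letters TCACNCCAC, the E-box that basic helix-loop-helix factors bind, with the letters CACGTG, the CCAAT box of many promoters, named by its letters, the GC box that Sp1 binds, with the letters GGGCGG, the forkhead site of FOX factors, with the letters TGTTTAC, and the site of C/EBP factors, with the letters TTGCNNAA. Elovl6, chr3:129235054-129235303 (plus strand), held the forkhead match, and Thrsp, chr7:104566241-104566490 (minus strand), none.
Elovl6: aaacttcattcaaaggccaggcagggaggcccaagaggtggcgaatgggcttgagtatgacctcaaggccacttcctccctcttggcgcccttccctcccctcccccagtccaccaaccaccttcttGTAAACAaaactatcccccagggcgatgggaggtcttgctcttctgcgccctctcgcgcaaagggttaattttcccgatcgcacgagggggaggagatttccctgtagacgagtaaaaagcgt
Thrsp: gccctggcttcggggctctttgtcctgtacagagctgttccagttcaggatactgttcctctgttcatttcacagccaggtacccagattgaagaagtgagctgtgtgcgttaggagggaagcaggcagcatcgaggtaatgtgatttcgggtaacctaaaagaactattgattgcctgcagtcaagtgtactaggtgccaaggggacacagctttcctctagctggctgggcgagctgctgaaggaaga

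The next sequences are the CTCF motif matches (capitals, 20 bases) with 10 bases on each side, on the strand of the motif, in the nearest CAC peaks with a match on each side of Scd1 and Elovl6, and in the nearest such peaks on the left of Srebf1 and Acaca. They are shown because the first 4 point at each other in pairs and the last 2 share their 20 letters. The positions are chr19:44447634-44447673 (plus strand) and chr19:44493674-44493713 (minus) for Scd1, chr3:129223592-129223631 (plus) and chr3:129390071-129390110 (minus) for Elovl6, chr11:60008779-60008818 (minus) for Srebf1 and chr11:83929890-83929929 (plus) for Acaca.
Scd1, 3′ side: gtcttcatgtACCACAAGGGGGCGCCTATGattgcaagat
Scd1, 5′ side: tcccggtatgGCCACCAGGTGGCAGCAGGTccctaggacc
Elovl6, 5′ side: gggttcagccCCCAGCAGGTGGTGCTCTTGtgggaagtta
Elovl6, 3′ side: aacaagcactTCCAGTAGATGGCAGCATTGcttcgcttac
Srebf1, 3′ side: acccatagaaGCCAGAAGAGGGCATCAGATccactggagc
Acaca, 5′ side: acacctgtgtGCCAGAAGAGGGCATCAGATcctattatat

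All 10 genes lay among peaks of both proteins, but the mixture of classes differed from gene to gene. Of the 130 CTCF peaks, 104 (80.0%, 95% Wilson interval 72.3 to 86.0%, counting error only, as for the intervals that follow) were CAC and 26 were Lone CTCF. Of the 148 Rad21 peaks, 99 were CAC and 49 (33.1%, 26.0 to 41.0%) were CNC. In the whole lists 73.7% of CTCF peaks were CAC and 26.4% of Rad21 peaks were CNC. The members' share of CNC peaks depended on the rule, from 20% where both peaks needed a fold enrichment of at least 5 to 44.6% where summits had to lie within 100 bp.

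The CNC peaks were gathered at a few of the genes. Elovl6 held 13 CNC peaks among 24 Rad21 peaks and Gpam 11 among 21, about as many as the CAC peaks of the Rad21 list there (11 and 10). Of Rad21 peaks with a −log10 q of at least 10, 2 of 10 at Elovl6 and 2 of 9 at Gpam were among these CNC peaks, so most of them were weak calls. Pnpla3 followed with 7 of 16. Scd1 had 0 of 9, and Acaca, the longest gene, had 2 of 17. Acaca stood apart in the other class, with 12 Lone CTCF peaks of 28, while Fasn and Thrsp had 0 of 10 and 0 of 5.

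**Figure D1:**
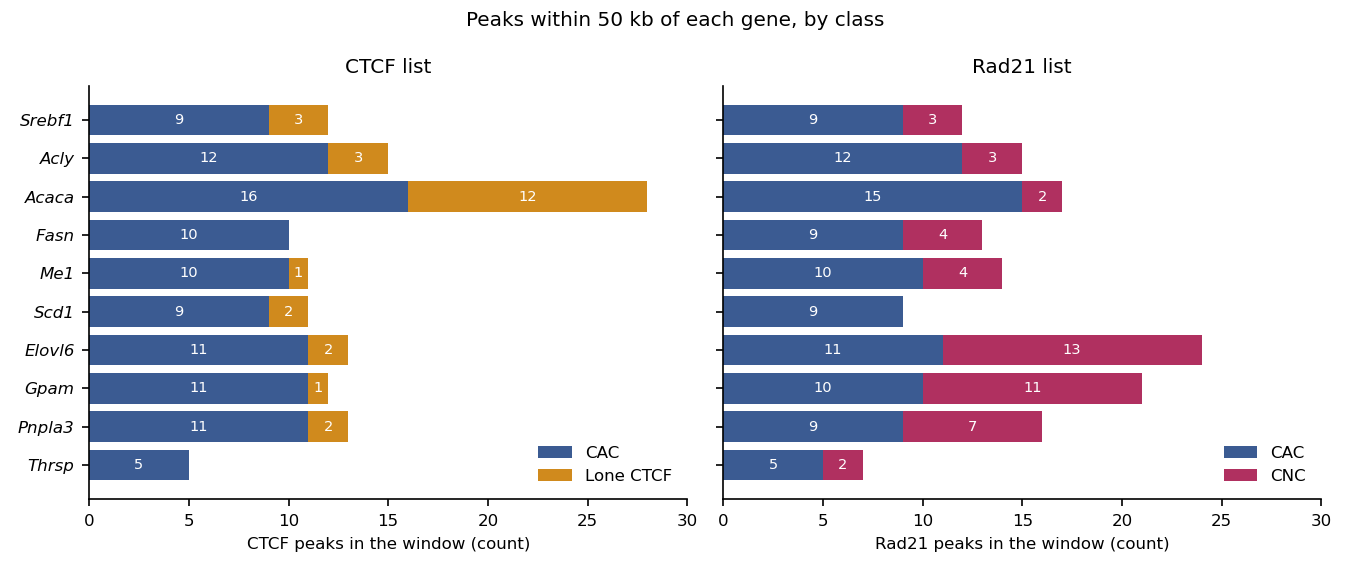
Number of CTCF peaks (left) and Rad21 peaks (right) in the window of each gene, coloured by class; bars start at 0 and each part carries its count. Elovl6 (13) and Gpam (11) hold the most CNC peaks and Acaca (12) the most Lone CTCF peaks, and Scd1 has no CNC peak.

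Peak density was set against that of all autosomal protein-coding genes. Per 100 kb of window the members' median was 7.99 CTCF peaks (5.26 over all genes) and 9.80 Rad21 peaks (4.89 over all genes). For CNC peaks the medians were 2.204 and 0.752, and for Lone CTCF peaks 1.31 and 0.979. The density of CNC peaks was higher than that of 99.6% of all genes at Gpam (6.89 per 100 kb), of 99.3% at Elovl6 (6.31) and of 98.9% at Pnpla3 (5.75). Not all members were dense: Scd1 had no CNC peak, and Acaca was below the median of all genes in CNC peaks (0.538 per 100 kb) and in Rad21 peaks (4.57). The members also were longer, with a median span of 37.6 kb against 15.5 kb.

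**Figure D2:**
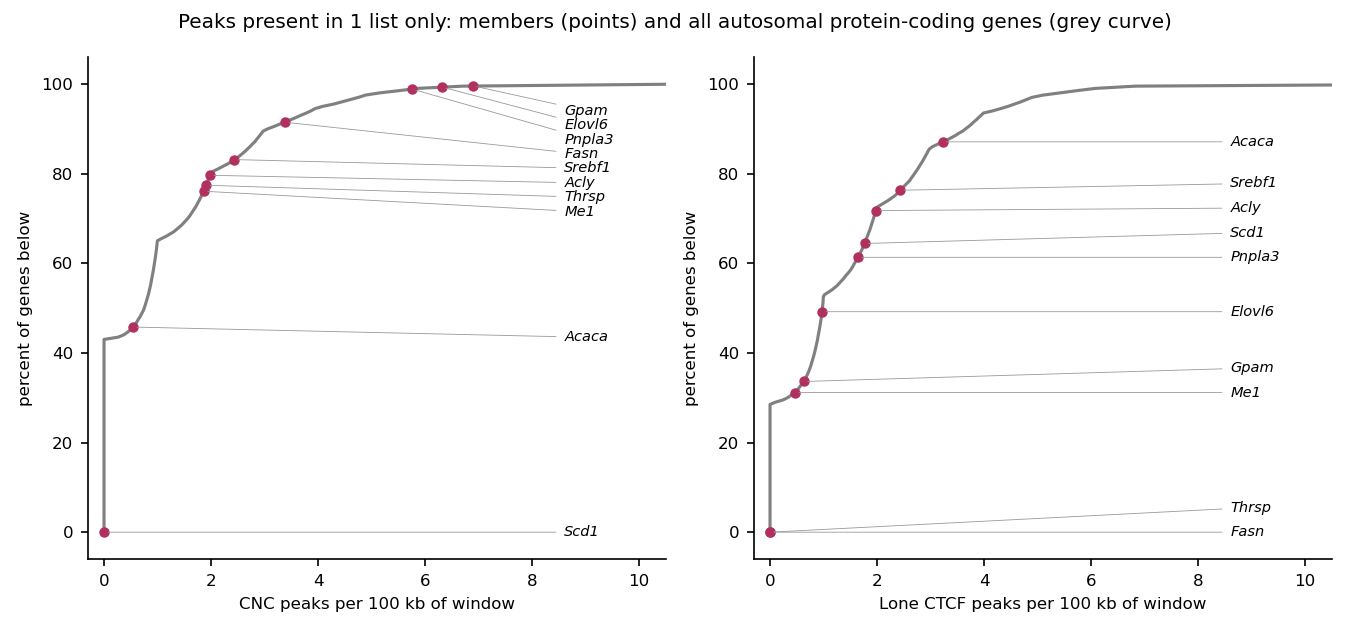
CNC peaks (left) and Lone CTCF peaks (right) per 100 kb of window on the x axis, against the percent of autosomal protein-coding genes with a lower value; the grey curve is all genes and the points are the 10 members. Gpam, Elovl6 and Pnpla3 lie at the top of the CNC curve (99.6, 99.3 and 98.9% of genes below) and Acaca leads the members in Lone CTCF peaks (87.1% below).

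Peaks in the windows were weaker than those of the lists as a whole. Fold enrichment, the ratio of ChIP signal at the summit to the local background, had a median of 4.91 over the members' CTCF peaks and 6.05 over the CTCF list. For Rad21 the medians were 3.87 and 4.93. Some members lay above the list median: Me1 (10.7) and Scd1 (7.70) for CTCF, and Scd1 (6.28), Acaca (5.71) and Acly (5.21) for Rad21. The other members lay below it. The lists were called separately and their fold enrichments are set side by side but not compared with each other. CAC peaks of the CTCF list ranged from 2.204 to 31.7 (median 5.85), and Lone CTCF peaks had a median of 3.38. CNC peaks lay at the low end, from 2.17 to 5.79 with a median of 3.05 in the Rad21 list, where the CNC peaks of all chromosomes had a median of 3.48.

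As a check of the tissue, each of 10 genes known for liver expression (such as Alb, Apoa1 and Cps1) had 1 to 3 CNC peaks within 10 kb. Among 10 genes known from other tissues, 2 (Gfap and Pax6) had 1 each. The share of all genes with such a peak is not given here.

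At the promoters, every member had both proteins. A CTCF peak lay within 1 kb of a protein-coding start of 10 of 10 members, where 53.7% of all autosomal protein-coding genes had one. A Rad21 peak did so at 10 of 10 (53.3% of all genes), and a CAC peak at 10 of 10 (49.5%). A CNC peak lay at the promoter of 4 members, Acly, Elovl6, Me1 and Gpam (10.96% of all genes). These 4 members each had a CAC promoter peak as well. At the second start of Gpam, however, the CNC peak stood beside a Lone CTCF peak. With a minimum fold enrichment of 5, a CTCF peak was at 5 of 10 promoters (36.05% of all genes) and a Rad21 peak at 5 of 10 (30.3%), and with a minimum −log10 q of 10 a CTCF peak was at 6 of 10 (46.7%). Genes expressed in liver were not separated from silent ones in the background.

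The height of the promoter peaks varied among the members. Among the genes with a CTCF promoter peak, the strongest one had a median fold enrichment of 6.41, and the members' median was 4.64. For Rad21 these values were 5.37 and 5.05. Acaca had the strongest promoter peaks of the members in both lists, CTCF 12.2 and Rad21 14.0, and Pnpla3 (9.41 and 8.95), Scd1 (9.58 and 6.28) and Fasn (7.23 and 5.94) also lay above the median of all genes. Acly was below it, with 5.54 and 5.21. The other 5 had weak CTCF promoter peaks: Srebf1 3.75, Gpam 3.16, Thrsp 3.09, Me1 3.08 and Elovl6 2.74, and the Elovl6 value exceeded that of only 2.27% of genes with a promoter peak.

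**Figure D3:**
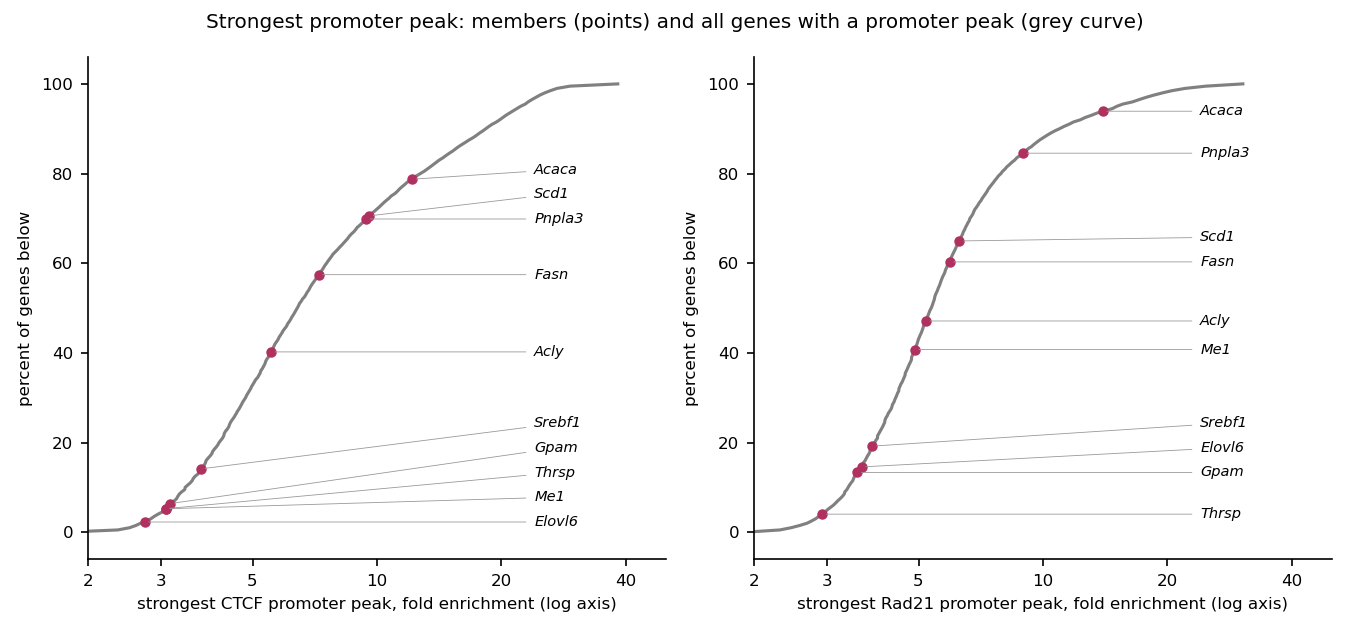
Fold enrichment of the strongest CTCF (left) and Rad21 (right) promoter peak on a log axis, against the percent of genes with a promoter peak that have a weaker one; the grey curve is all such genes and the points are the 10 members. Elovl6, Me1, Thrsp and Gpam each have at most 6.38% of genes below them for CTCF, and Acaca has 78.7% (CTCF) and 93.9% (Rad21) of genes below it.

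The CTCF motif was looked for within 100 bp of the summit, with a matrix learned from CTCF peaks of other chromosomes and a score reached by 1% of background windows. Acaca was the 1 member of 10 whose promoter CAC peaks held it (18.1% of the genes of odd-numbered autosomes with a CAC promoter peak did), and all 10 members lie on odd-numbered autosomes. Over the whole windows 40 of 104 CAC peaks held the motif (38.5%, 29.7 to 48.1%), where 43.1% of CAC peaks of those autosomes did. None of the 49 CNC peaks did, which allows up to 7.27% by the Wilson interval, and 2.24% of all CNC peaks of those autosomes did.

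**Figure D4:**
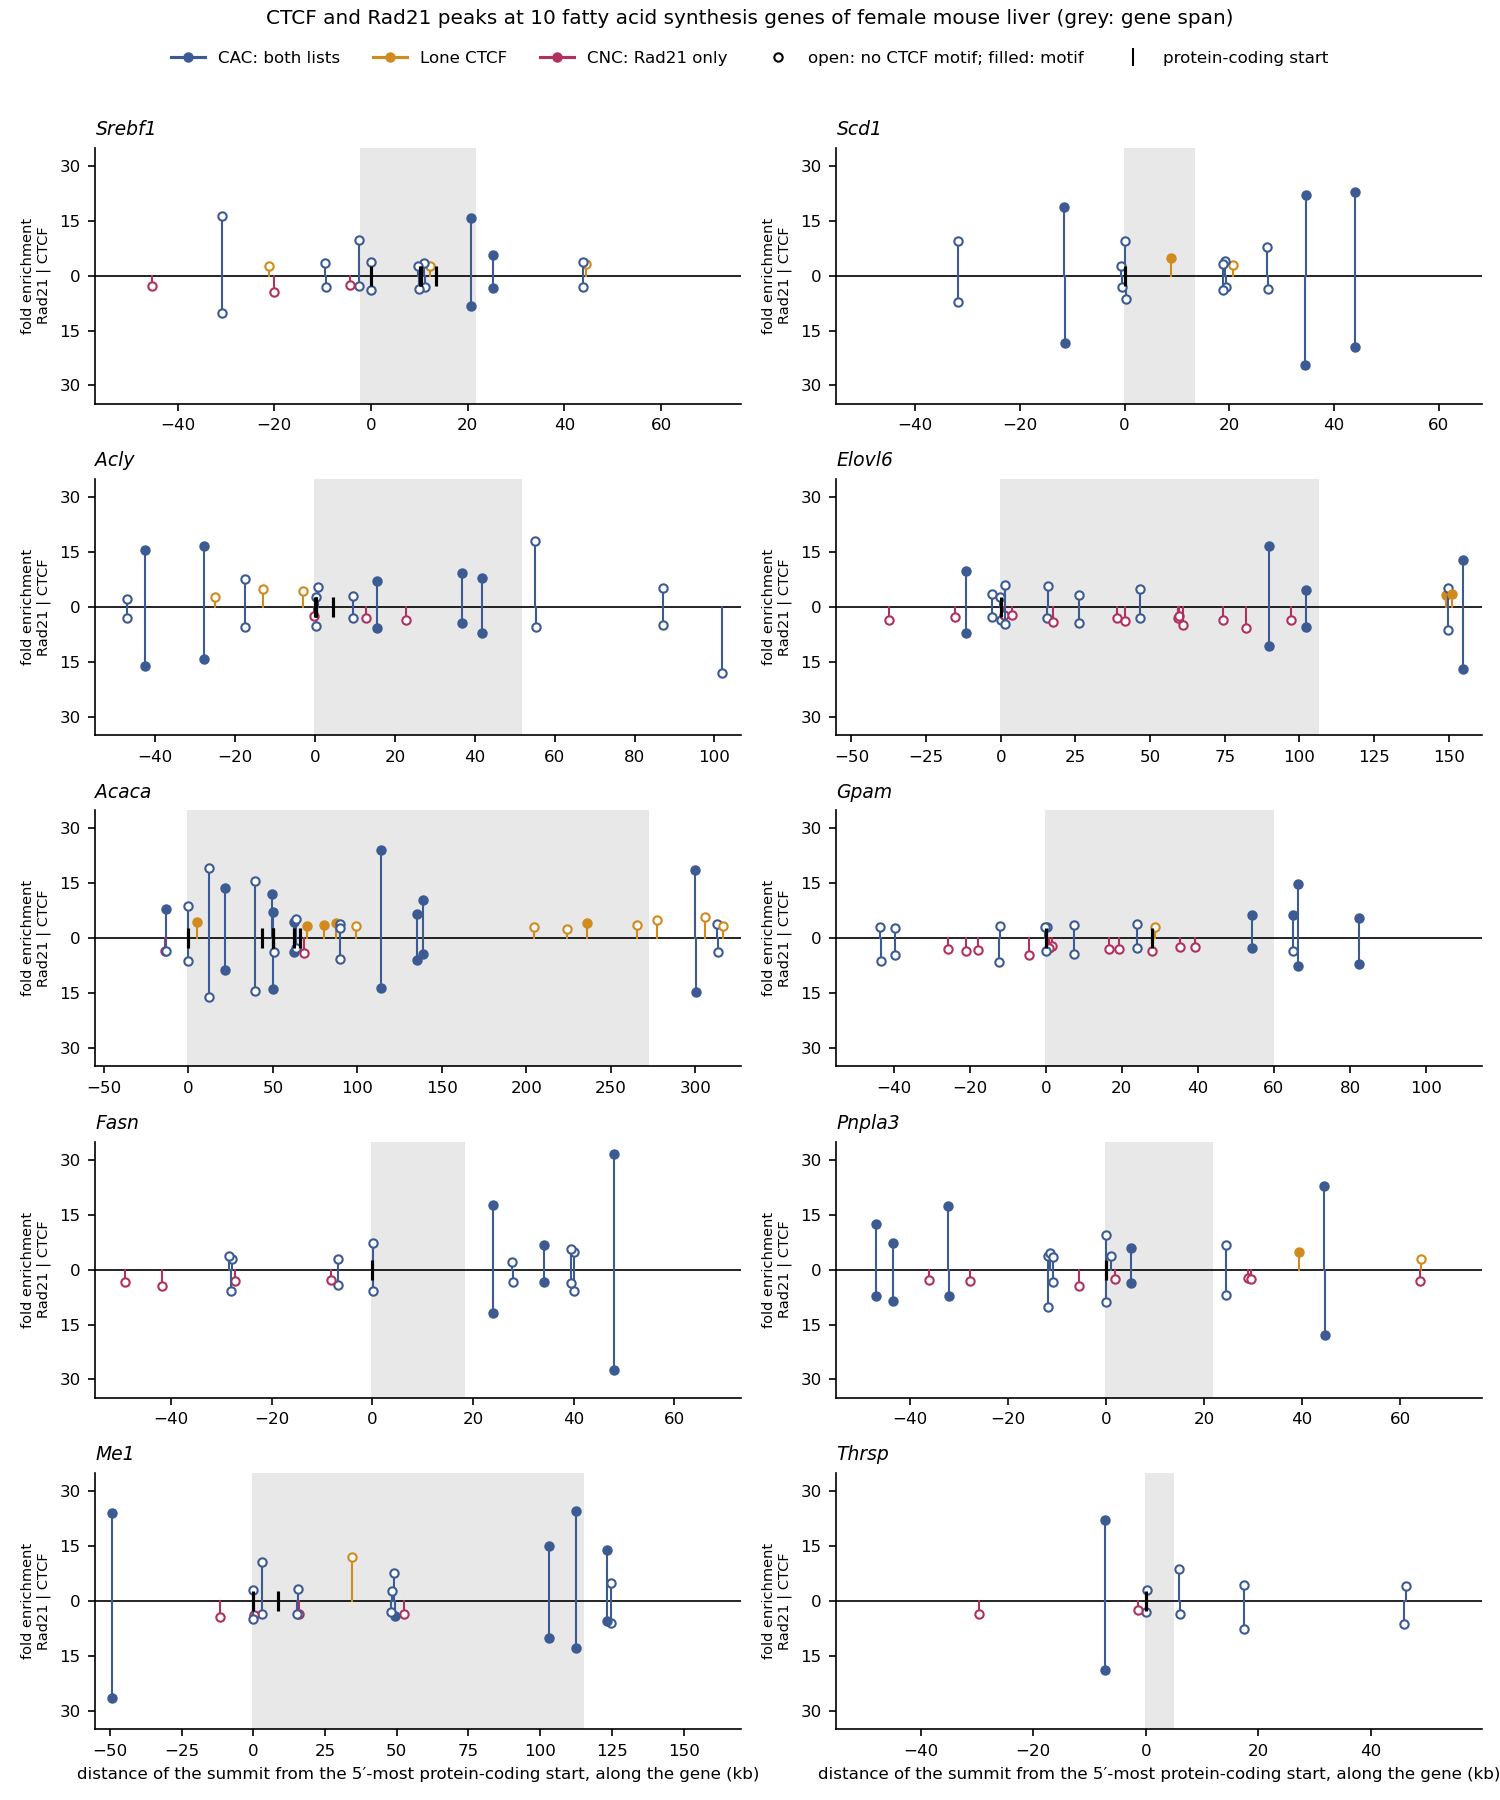
Peaks in the window of each gene, by distance of the summit from the 5′-most protein-coding start along the gene (kb), with CTCF fold enrichment drawn upward and Rad21 fold enrichment downward; colours give the class, filled points hold the CTCF motif, grey is the gene span and black ticks are protein-coding starts. Tall paired peaks with a motif stand mostly outside the genes, CNC peaks (2.17 to 5.79) spread through Elovl6 and Gpam, and Lone CTCF peaks line the body of Acaca.

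Srebf1 encodes SREBP-1, the transcription factor that drives most of the pathway, from alternative promoters that give the 1a and 1c forms. The gene (chr11:60012591-60036083, minus strand) had 12 peaks in each list, 9 of them CAC in each. Its first protein-coding start carried a CAC peak of 3.75 (CTCF) and 3.87 (Rad21). A pair of annotated starts 10.1 and 10.3 kb into the gene had CAC peaks of at most 3.46 and 3.52. The last annotated start, 13.4 kb into the gene, had no peak within 1 kb.

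The strong sites of the Srebf1 window were away from its protein-coding starts. The tallest CTCF peak (16.2, Rad21 10.1) lay 30.8 kb upstream in an intron of Tom1l2 and had no motif match. A peak of 15.7 (Rad21 8.28) lay in the annotated UTR at the 3′ end of Srebf1, 20.8 kb from the start, and held a motif. Another, of 9.71, lay 2.42 kb upstream of the first protein-coding start, with a weak Rad21 partner (2.87). It stood just outside the 5′ end of the annotated gene span. All 3 CNC peaks were upstream, the strongest (4.61, −log10 q 18.4) 20.1 kb away in a UTR of Tom1l2. The 201 bases at its summit held a match to the sterol regulatory element, one to the CCAAT box and one to the forkhead site. The strongest Lone CTCF peak of the window (3.23) lay 44.5 kb from the start on the 3′ side, in an intron of Rai1 near a start of that gene.

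Acly encodes ATP-citrate lyase, which makes cytosolic acetyl-CoA from citrate. The gene (chr11:100337667-100389314, minus strand) had 15 peaks in each list, 12 of them CAC in each. At its start a CAC peak (5.54 and 5.21) was followed 0.33 kb upstream of the start by a CNC peak of 2.56, the weakest of the 3 CNC peaks of the window, and the others (3.66 and 3.05) were in introns of Acly. The body held 3 CAC peaks with a motif, of 6.98, 9.15 and 7.95, at 15.5, 36.8 and 41.7 kb from the start. Taller CAC peaks were outside: 18.1 without a motif at the promoter of Klhl11, 55.1 kb downstream of the start, and 16.8 and 15.7, both with a motif, in introns of Ttc25, 27.8 and 42.6 kb upstream. The strongest Rad21 peak (17.95) was at the far 3′ edge of the window, and the strongest Lone CTCF peak (4.94) lay 13.1 kb upstream.

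Acaca encodes acetyl-CoA carboxylase 1, which makes malonyl-CoA in the committed step. The gene (chr11:83943174-84215153, plus strand) is the longest member at 272 kb, with 6 protein-coding starts. The first start, shared with the divergent gene Tada2a, had a CAC peak of 8.77 (Rad21 6.27). Starts 50.1 and 50.2 kb into the gene had the strongest promoter peaks of all 10 members, 12.2 (CTCF) and 14.0 (Rad21), with a motif, and a neighbouring CAC peak of 7.21 also held one. A start at 62.4 kb had 4.57 and 3.62.

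Inside Acaca the classes of peak were unequal in number. The body held 13 CAC peaks of the CTCF list, led by 24.2 at 114 kb, 19.2 at 12.3 kb and 15.7 at 39.4 kb, with Rad21 partners of 13.4, 15.9 and 14.3. It also held 9 Lone CTCF peaks, from 2.48 to 4.45, and 1 CNC peak (4.02). Among the 2281 autosomal protein-coding genes of at least 100 kb, 1.53% had at least as many Lone CTCF peaks in the span. For CNC peaks, 58.6% had at most as many as Acaca, the median being 1. These counts were not scaled to gene length. Per 100 kb of window, the Lone CTCF density of Acaca (3.23) was higher than that of 87.1% of all genes.

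Fasn encodes fatty acid synthase, the enzyme that builds palmitate from malonyl-CoA. The gene is short (chr11:120667254-120685492, minus strand) and had 5 other protein-coding genes in its window. Its only peaks in the span were the broad promoter pair, CTCF 7.23 over 1157 bp and Rad21 5.94 over 989 bp, with summits 0.085 and 0.18 kb inside the gene. The window also held the tallest CTCF peak of all 130, 31.7 (−log10 q 1283), 47.9 kb beyond the start on the 3′ side, with a Rad21 partner of 27.3 and a motif. Nearer, 23.97 kb from the start and past the 3′ end, a second motif peak had 17.6 and 11.8. All 4 CNC peaks (2.90 to 4.38) were on the other side, upstream, within introns of Ccdc57.

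Me1 encodes cytosolic malic enzyme, a source of NADPH for the synthesis. The gene (chr9:86474970-86589947, minus strand) had a promoter pair of 3.08 (CTCF, 5.22% of genes below) and 4.90 (Rad21, 40.8% below), shared with the divergent A330041J22Rik, and a CNC peak of 3.86 with its summit 0.425 kb into the gene. Toward its 3′ end it held motif CAC peaks of 24.6 and 15.1 at 112 and 103 kb. Me1 also had the strongest Lone CTCF peak of all 26, 12.03 (−log10 q 67.9) in an intron 34.5 kb from the start, without a motif match and 13.3 kb from the nearest Rad21 peak. The next strongest of that class had 5.76, at Acaca. The strongest CNC peak of the Me1 window (4.32) lay 11.7 kb upstream, between genes.

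Scd1 encodes the stearoyl-CoA desaturase of liver, which puts a double bond into stearate and palmitate. The gene (chr19:44468941-44482199, minus strand) had no CNC peak. Its promoter pair had 9.58 and 6.28, with a second CAC peak of 2.62 on the upstream side. The gene stood between tall motif peaks: 18.7 (Rad21 18.3) 11.5 kb upstream, and 22.0 (Rad21 24.4) 34.6 kb and 22.8 (Rad21 19.5) 44.1 kb from the start on the other side. The 2 nearest, printed above, were 46.0 kb apart. Scd1 has near-copies in the Scd family beside it. The paper states that reads without a unique position were left out, so peaks in stretches identical between copies could be missed.

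Elovl6 encodes the elongase that takes palmitate to stearate. The gene (chr3:129235304-129341413, plus strand) had the most CNC peaks. Its promoter pair was the weakest of the members in CTCF (2.74, Rad21 3.65), and 11 of its 13 CNC peaks lay within the span, all in introns, from 0.939 to 97.1 kb from the start. Among the genes of at least 100 kb, 3.68% had as many CNC peaks in the span. The strongest CNC peak of all 49 was one of these, 5.79 (−log10 q 19.4) at 82.1 kb, and a second had 4.82 at 60.9 kb. The tallest motif CAC peak of the window (CTCF 16.6) lay inside Elovl6. Both Lone CTCF peaks (3.35 and 3.41) were in introns of Egf and held a motif.

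The summit of the 5.79 peak is shown as the highest CNC site of the set, in 201 bases of the plus strand, chr3:129317286-129317486. It held none of the 6 short motifs printed above. The strongest CNC peak of Pnpla3 (4.48), chr15:83992553-83992753, is shown beside it, with an E-box and a C/EBP match in capitals.
Elovl6, CNC: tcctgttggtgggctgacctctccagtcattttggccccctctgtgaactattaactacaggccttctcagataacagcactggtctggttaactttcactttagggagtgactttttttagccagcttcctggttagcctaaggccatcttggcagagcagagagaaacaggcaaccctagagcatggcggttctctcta
Pnpla3, CNC: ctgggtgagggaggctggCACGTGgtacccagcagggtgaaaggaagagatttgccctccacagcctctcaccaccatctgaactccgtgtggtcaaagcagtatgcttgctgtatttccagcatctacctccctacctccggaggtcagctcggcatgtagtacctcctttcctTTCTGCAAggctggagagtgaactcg

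Gpam encodes the mitochondrial glycerol-3-phosphate acyltransferase that starts triglyceride assembly. The gene (chr19:55142142-55201824, minus strand) was alone in its window. Its promoter pair was weak (3.16 and 3.56). Of the 11 CNC peaks, 7 were in the span and 4 upstream, from 2.24 to 4.52, the strongest 4.50 kb upstream of the start. A second start, 27.9 kb into the gene, had a Lone CTCF peak (2.997) and a CNC peak (3.52, −log10 q 13.3) that lay 0.272 kb apart, so that both lists held a peak at the start without sharing a base. Among the 4623 genes of at least 50 kb, 5.80% had as many CNC peaks in the span.

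The tallest CTCF peak of the Gpam window was on its 3′ side. A motif CAC peak of 14.8 (Rad21 7.67) lay 66.2 kb from the start, beyond the end of the gene, and one of 6.32 lay beside it. Upstream of the gene no CTCF peak of the window passed 3.30, but Rad21 partners of the CTCF peaks there reached 6.51 and 6.11, 12.2 and 43.4 kb from the start.

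Pnpla3 encodes adiponutrin, a lipid droplet protein and lipase of triglyceride turnover that carbohydrate feeding induces. The gene (chr15:83998246-84019942, plus strand) had strong promoter peaks of 9.41 and 8.95, the Rad21 peak 1512 bp wide. Its window was the densest of the 10 in CTCF peaks (10.7 per 100 kb), and its Rad21 density (13.1) was close to that of Gpam (13.2). Of the 7 CNC peaks, 1 was in the span and the strongest (4.48) lay 5.59 kb upstream. A CNC peak and a Lone CTCF peak at the promoter of Parvb, 64.1 kb from the start of Pnpla3, were 1 bp apart. The tallest CAC peaks, 22.8 and 17.4, both with a motif, were 44.5 kb to the 3′ side and 32.2 kb to the 5′ side.

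Thrsp encodes Spot 14, a small protein that supports lipogenesis and responds to thyroid hormone. The gene is the shortest member (chr7:104561448-104566240, minus strand, 4.79 kb) and had the fewest peaks, 5 CTCF and 7 Rad21. Its promoter pair was weak in both lists (3.09 and 2.93), and a CNC peak of 2.47 lay 1.30 kb upstream. The stronger of its CNC peaks (3.48) lay 29.7 kb upstream. One site dominated: a CAC peak of 22.2 (Rad21 18.9), 7.31 kb upstream, with the best motif match of all CTCF peaks in the windows (24.2 bits).

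The directions of the nearest motif CAC peaks on each side of the genes were then read. They pointed at each other, with the gene between, at 2 of 10 members, Scd1 and Elovl6, where 27.4% of the genes of odd-numbered autosomes lay between such a pair. At Elovl6 the pair was 167 kb apart, with 9.902 (Rad21 7.00) and 12.9 (Rad21 16.9). Fasn lay between motifs that pointed away, with 17.6 (Rad21 11.8) and 7.73 (Rad21 10.8), and at the other 7 members both motifs pointed one way. The heights of those pairs, on the left and the right of the gene by coordinate, were CTCF 5.61 and 10.6 at Srebf1, 7.95 and 18.8 at Acaca, and 17.4 and 16.8 at Acly. At Me1 they were 13.9 and 23.9, at Thrsp 18.8 and 22.2, at Pnpla3 17.4 and 22.8, and at Gpam 6.32 and 19.3. With a looser motif score, reached by 5% of background windows, neither Scd1 nor Elovl6 kept the arrangement and Acly gained it (1 of 10, where 27.3% of genes had it), so the direction of the nearest motif at these genes depended on how weak a match was accepted.

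**Figure D5:**
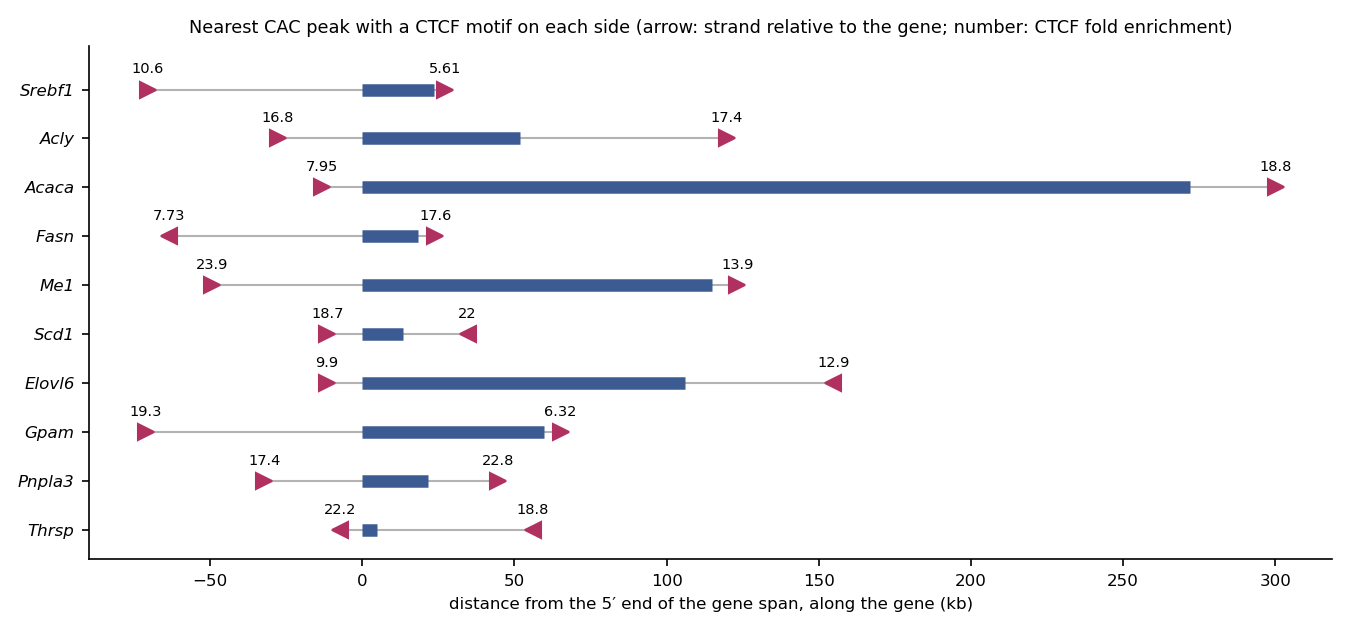
Gene span (blue bar) and the nearest CAC peak with a CTCF motif on each side (triangles) for each gene, by distance from the 5′ end of the gene span along the gene (kb); a triangle points the way the motif reads and the number is the CTCF fold enrichment. At Scd1 and Elovl6 the triangles point at each other; the left triangle points into the gene at 8 of 10 genes.

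Read along the gene, the upstream motif lay on the strand of the gene at 8 of 10 members, all but Fasn and Thrsp, where 51.1% of the genes of odd-numbered autosomes had it so. This count was made after the directions had been seen, and it was 5 of 10 with the looser score, at which 51.7% of genes had it so. The distance between the flanking peaks had a median of 117 kb at the members and 132.7 kb over those genes.

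Several of the CTCF matches were copies of one another. The 20 letters printed for Srebf1 and for Acaca were the same, and they were the most common match of all: 356 of 20994 autosomal CAC peaks with a motif held exactly these letters. The match on the left of Thrsp differed from it by 1 base and was held by 175 peaks. Such families of sites are known in the mouse genome from B2 repeats, which carried CTCF motifs to many places, but no repeat annotation was used here.

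Near-copies were found in both classes of CTCF peak. Matches with at most 2 differences from the common letters made up 6 of the 9 Lone CTCF peaks with a motif in the windows and 5 of the 40 CAC peaks with one. Over the odd-numbered autosomes the shares were 37.2% of 3695 and 10.7% of 11579. Acaca held 4 of the 6 Lone CTCF near-copies, from 3.29 to 4.45, and 3 of the 5 in CAC peaks, one of which was the tallest peak of its window (24.2). Scd1 and Pnpla3 held the other Lone CTCF near-copies, of 4.69 and 4.80.

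For 5 of the 6 short motifs, the promoters of the members were compared with all promoters. In the promoters, 250 bases before to 50 after the 5′-most start, the E-box was in Acaca alone (7.79% of 21405 promoters held it), 38 bases upstream of the start. GC boxes were in 7 members (44.3%), and CCAAT boxes in 5 (37.6%). The forkhead match was in Elovl6 alone (3.06%), 123 bases upstream, and the C/EBP site in none (10.3%). The GC content ran from 52.3% (Thrsp) to 81.7% (Acaca).

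Under the 49 CNC peaks, in 201 bases at the summit, 2 held the sterol regulatory element (0.868% of 17866 autosomal CNC peaks), 2 the E-box (3.68%), 13 the CCAAT box (23.9%), 6 the GC box (7.38%), 6 the C/EBP site (12.9%) and 1 the forkhead site (4.75%). A match is a string of letters and not a measured site.

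A CNC peak lay in the span of 6 of 10 members: Elovl6, Gpam, Me1, Acly, Acaca and Pnpla3 (22.7% of all genes). Gene lengths were not matched here: the median span was 37.6 kb for the members and 15.5 kb for all genes. Genes of at least 50 kb had a median of 1 CNC peak in the span. With a minimum fold enrichment of 5 on both lists the members with one were Elovl6 and Acaca (10.4% of all genes), and the Acaca peak (5.71) counted as CNC there because its CTCF partner (3.89) was below the minimum. The other genes of the pathway formed a list of 34, chosen by name with earlier results of these data known. Of the 34, 30 had a CTCF promoter peak, 29 a Rad21 promoter peak, 27 a CAC promoter peak and 18 a CNC peak in the span. Acacb, the mitochondrial acetyl-CoA carboxylase, and Dgat1, an acyltransferase of the last step of triglyceride synthesis, were among the 7 without a CAC promoter peak. Acacb had a promoter peak of each protein, without overlap, and Dgat1 had a promoter peak of neither.

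The opposing pathway was counted in the same way. Of 12 genes of fatty acid oxidation, 9 had a CTCF promoter peak, 10 a Rad21 promoter peak and 8 a CAC promoter peak, and 7 had a CNC peak in the span. Cpt1a, the carnitine palmitoyltransferase that admits fatty acids to mitochondria, was among the 4 without a CAC promoter peak. Both proteins had a promoter peak at Cpt1a, but these peaks did not overlap. Of 11 genes of cholesterol synthesis and uptake, 10 had a CAC promoter peak and 4 a CNC peak in the span. CNC peaks were 26.4% of Rad21 peaks (22.4 to 30.9%) in the windows of the 34 pathway genes, 26.7% (19.9 to 34.9%) for oxidation and 30.8% (23.1 to 39.6%) for cholesterol, and these intervals overlap that of the members.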

How the data were processed

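CTCF (4 libraries) and Rad21 (3 libraries) ChIP-seq of female liver was analysed from 1 deposited peak list per antibody, made by the authors with replicates pooled. Per the submitters' processing notes, reads were mapped to mm9 with Bowtie2 and peaks called with MACS2. The lists hold, as deposited, a fold enrichment (ratio over local background), −log10 p and −log10 q values, a score and the summit of each peak. Pooling leaves no spread between libraries, so no test was run and values are descriptive. Wilson intervals cover counting error only. Depth per library is not given in the lists.

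Gene spans were taken from GENCODE gene models on mm9. Peaks of both lists that shared at least 1 bp were CAC. The CTCF matrix (20 bp) was learned from 1000 strong peaks on even-numbered autosomes other than 18. It was read within 100 bp of summits on odd-numbered autosomes, at the score that 1% of background windows reached. The counts of CAC peaks with identical matches covered all autosomes, including those used for learning. Sequences were read from the mm9 genome. Scripts were tested on simulated data and used samtools 1.23.1, pysam 0.24.0, numpy 2.4.6, pandas 2.3.3, scipy 1.17.1 and matplotlib 3.10.9.

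The naming rule took all 10 members, with their promoter peaks, the strongest peak of each class in the window and the nearest CAC peaks with a motif. Other peaks that are named were chosen after their values were seen. The members and gene lists were chosen with earlier results of these data known. Of the comparison lists, 34 of 34 pathway, 12 of 12 oxidation and 11 of 12 cholesterol genes were matched. Some items of the lists and sequences are not reported here.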

Additional observations from a re-analysis of the deposited data

How the results depend on the processing

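The number of CTCF peaks in the windows fell from 130 to 82 with 10 kb on each side, to 84 with a minimum −log10 q of 10 and to 63 with a minimum fold enrichment of 5, and the number of Rad21 peaks from 148 to 95, 80 and 55. The share of CTCF peaks called CAC (80.0%) was 62.3% with summits within 100 bp, 67.9% with the q minimum in both lists and 68.3% with the fold minimum. The share of Rad21 peaks called CNC (33.1%) was 41.2% with an overlap of at least 50% of the peak, 44.6% with summits within 100 bp and 20% with the fold minimum. Members with a CTCF promoter peak numbered 6 with the q minimum and 5 with the fold minimum, those with a Rad21 promoter peak 5 with the fold minimum, and those with a CNC peak in the span 2 with the fold minimum on both lists; of all genes, 46.7, 36.05, 30.3 and 10.4% met these same 4 criteria. With the motif score that 5% of background windows reached, 52.9% of CAC peaks in the windows held a motif, 1 member lay between converging motifs, and 5 members had the upstream motif on the strand of the gene, the last an alternative chosen after seeing the data. Of 47 alternative values, 28 stayed within the set limits and 19 moved.

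No paired analysis was possible because each antibody has 1 pooled list, and no replicate was left out. The height of a weak peak, such as a CNC peak, has no error here, since the lists hold neither replicate values nor the depth of each library.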
